A study of Homo sapiens with 6 samples.

Results

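The genes described here encode the proteasome, the barrel-shaped protease that degrades ubiquitin-tagged proteins, together with its activators, its inhibitor and its assembly chaperones. They were chosen by name, as symbols made of PSM, 1 letter from A to G and digits, without the immunoproteasome subunits PSMB8, PSMB9 and PSMB10. This gave 45 of the 56303 genes in the deposited count table. T24, an established human bladder carcinoma line, was transfected with a control siRNA (siNC, labelled WT) or with siRNA against the F-box gene FBXL6 (siFBXL6, labelled as a knockdown), with 3 libraries in each group and 1 batch for all. RNA was isolated at the same time after transfection in both groups, and libraries were made with a stranded mRNA kit. The labels number the treated samples siFBXL6-1 to siFBXL6-3, and these numbers were read as replicates, although the study also uses such names for single siRNAs. Library totals were 58646515, 60967902 and 56814946 counts for siNC and 60968158, 60898556 and 60754015 counts for siFBXL6.

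The 26S proteasome is built from a 20S core and a 19S cap. In the core, alpha subunits (letter A) form the outer rings that gate the channel, and beta subunits (letter B) form the inner rings that hold the proteolytic sites. In the cap, ATPases (letter C) unfold substrates and thread them into the core, while most non-ATPase subunits (letter D) bind, deubiquitinate and position them. Other activators (letter E) can dock on the core in place of the cap, PSMF1 encodes the inhibitor PI31, and letter G stands for chaperones that guide assembly of the core. F-box proteins such as FBXL6 bind the substrates of ubiquitin ligases, and the ubiquitin so attached can send a protein to the proteasome or, with chains of other kinds, change its activity or steady it.

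FBXL6 itself was at 6.19, 6.70 and 6.93 CPM (counts scaled to a common library size, with TMM factors for library composition) in the siNC libraries and at 6.58, 5.70 and 5.81 CPM in the libraries labelled siFBXL6. The groups overlapped, and its log2 fold change, here always siFBXL6 over siNC, was -0.13 (standard error, SE, 0.0875, adjusted p = 0.247 in edgeR's quasi-likelihood test with Benjamini-Hochberg adjustment over all genes tested). FBXL6 did not set the groups apart, and other genes overlap 37.0% of its exon bases, so samples are named by their labels and every direction below is one between libraries labelled siFBXL6 and libraries labelled siNC. By qRT-PCR and Western blot, the paper reports knockdown of FBXL6 in T24 cells given its siRNAs, without tying those measurements to these libraries. Epithelial genes were counted, with KRT7 at 1038, EPCAM at 274 and CDH1 at 118 CPM in siNC. Of 4 mesenchymal genes, FN1 was at 2429, CDH2 at 138, VIM at 15.6 and ZEB1 at 1.12 CPM in siNC. The identity of the line was not tested. Of the 8 urothelial differentiation genes examined, UPK1A had no count in any library, and UPK1B, UPK3A and KRT20 had too few to be tested.

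Proteasome genes moved in both directions. PSMD2 and PSMD14 of the 19S cap rose by 35.7% and 32.4%, PSMB7 of the 20S core rose by 21.1%, and the activator gene PSME1 fell, with a log2 fold change of -0.30, while most other subunits differed little. In the deposited GRCh38 coordinates PSMD2 spans chr3:184298709-184309054, PSMD14 chr2:161308038-161411717, PSMB7 chr9:124353466-124415444 and PSME1 chr14:24136158-24138967. Of the 45 genes, 43 had enough counts to be tested, and the other 2, the testis form PSMA8 and the thymus form PSMB11, were at or near 0 in both groups. An adjusted p under 0.05, the threshold used for every call, was reached by 19 of the 43 genes (44.2%), beside 40.2% of all 21298 genes tested. Of these, 12 (27.9%) were higher in the libraries labelled siFBXL6, beside 20.5% of all genes, and 7 (16.3%) were lower, beside 19.8%. The count of calls was thus near that of the whole table. A change of at least 1.2-fold besides was found for 4 members (9.30%), PSMD2, PSMD14, PSMB7 and PSME1, beside 21.9% of all genes. PSMB7 and PSMD12 lay near this mark, which is 0.263 on the log2 scale. PSMB7 fell below it in some alternatives, such as without siNC replicate 1 (0.248). PSMD12 passed it in others, such as without siNC replicate 3 (0.279). Member changes were small, with a median absolute log2 fold change of 0.08 over the 43 genes, against 0.18 over all genes tested. Their median log2 fold change was 0.03, against -0.01 for all genes. With upper-quartile scaling or library size alone in place of TMM, the member median was 0.0086 and 0.0064, and without siFBXL6 replicate 3 it was 0.02. The values of the 3 siNC libraries and of the 3 siFBXL6 libraries did not overlap for 26 members (60.5%), beside 48.2% of all genes. For each of these 26 the exact two-sided permutation test gave p = 0.1, the smallest that 3 libraries against 3 allow.

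**Figure D1:**
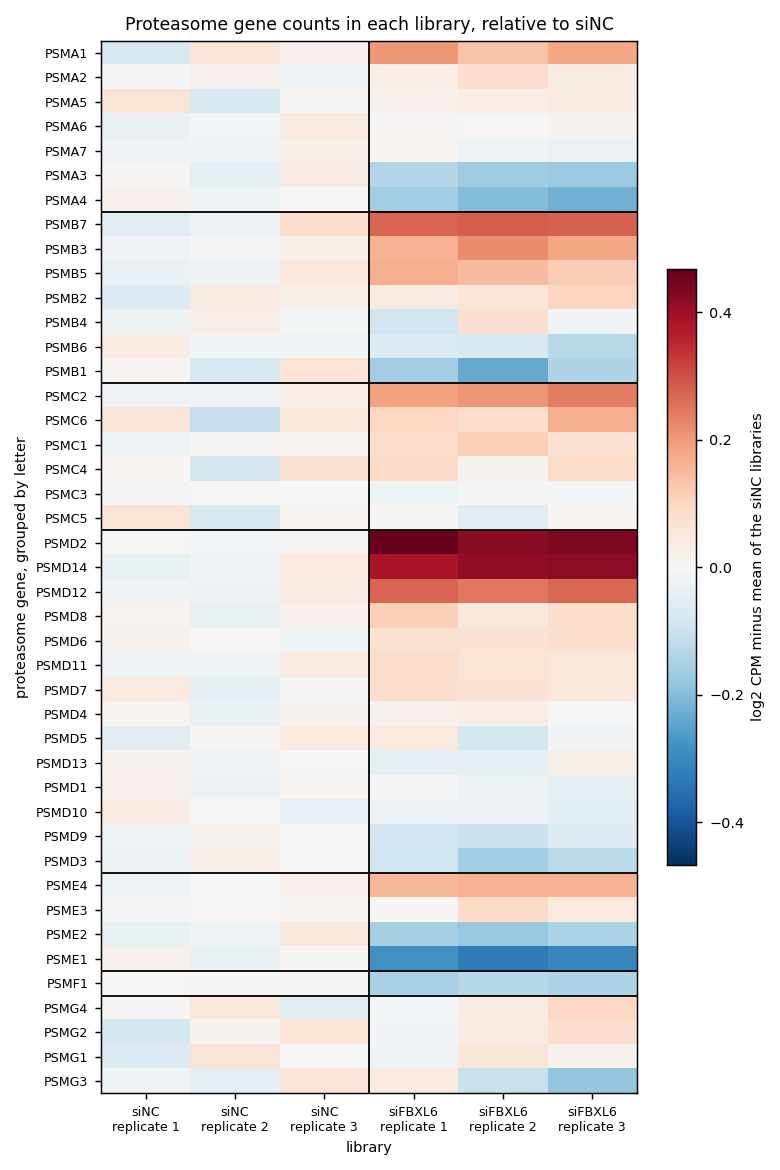
Each row is a proteasome gene and each column a library; colour is log2 CPM minus the mean of the 3 siNC libraries, with rows grouped by letter A to G. PSMD2, PSMD14, PSMB7 and PSMD12 are red in all 3 siFBXL6 libraries and PSME1 is blue in all 3, and the rows of letter G show no such division.

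Calls by letter are read beside the 40.2% of all genes tested that were called (20.5% higher, 19.8% lower), and neither their distance from these shares nor the differences between letters were tested. Among the alpha subunits 1 gene was called higher and 2 lower of 7 tested, and among the beta subunits 3 higher and 1 lower of 7. Of the 6 ATPases 3 were called higher, and the other 3 were not called. The 14 genes of letter D gave 4 calls higher and 1 lower, and the 4 activators 1 higher and 2 lower. PSMF1 was lower. Of the 4 genes of letter G, 0 were called by edgeR or by DESeq2, and 0 had an unadjusted p under 0.05 in edgeR. Median log2 fold changes were 0.07 for letter B (0.04 with library size alone and without siNC replicate 1), 0.08 for C (0.04 without siNC replicate 2), 0.04 for D (0.02 with upper-quartile scaling, with library size alone and without siNC replicate 2) and -0.06 for E (-0.08 with upper-quartile scaling and with library size alone). For letters A and G the median was near 0, at 0.01 and 0.03, and its sign was not settled. Over the 15 alternatives it ran from -0.02 to 0.03 for A and from -0.01 to 0.05 for G. It turned negative for A with upper-quartile scaling (-0.01), with library size alone (-0.02) and without siNC replicate 1 or 2 (-0.01 in both), and for G without siNC replicate 1 (-0.01); without siNC replicate 3 it was 0.03 for A.

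**Figure D2:**
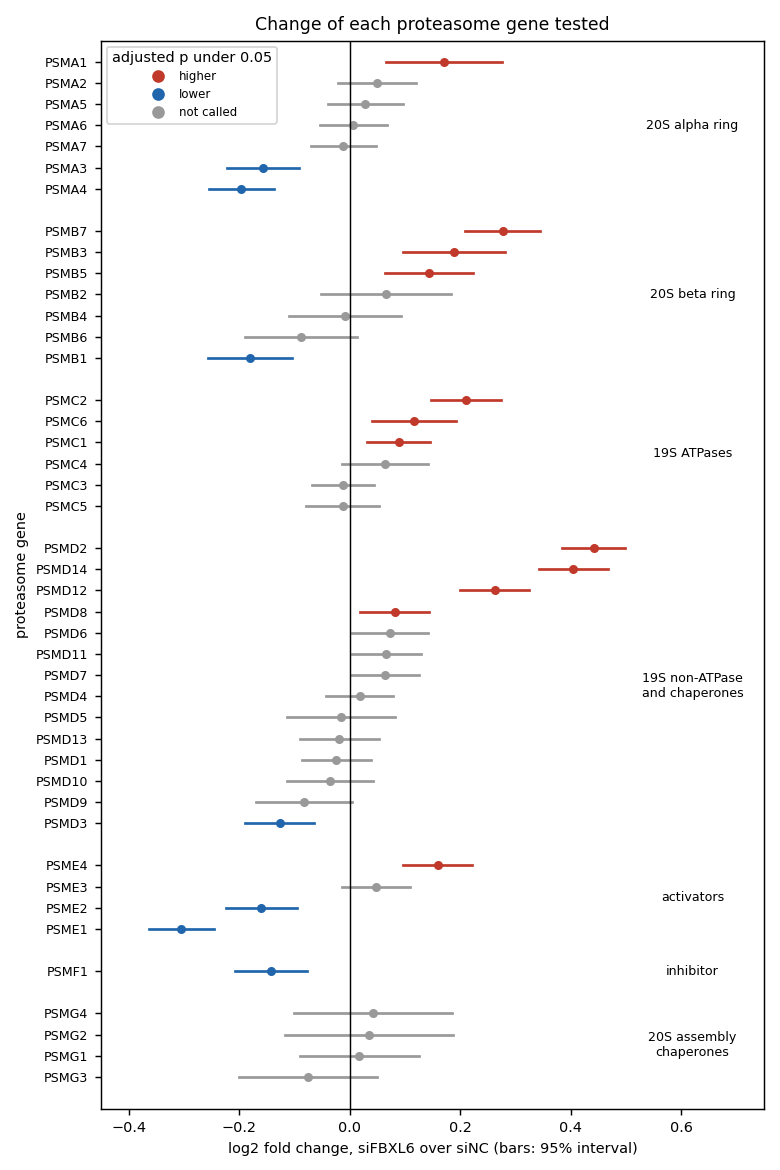
Points are log2 fold changes of the 43 genes tested (siFBXL6 over siNC), bars are 95% intervals from the model, and colour gives the call. PSMD2 at 0.44 and PSMD14 at 0.40 lie farthest to the right, and PSME1 at -0.30 lies farthest to the left.

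The alpha ring split. PSMA4, a ring subunit, was at 398, 387 and 393 CPM in siNC and at 350.5, 340.5 and 336 CPM in siFBXL6. Every siFBXL6 library lay below every siNC library, and PSMA4 fell by 0.20 on the log2 scale (SE 0.0289, edgeR adjusted p = 9.88e-07). PSMA3, another alpha subunit, was at 90.9, 87.7 and 92.8 CPM against 82.4, 80.7 and 80.3 CPM. The groups were again apart, with a log2 fold change of -0.16 (SE 0.0318, edgeR adjusted p = 0.000128). PSMA1 went the other way, from 18.6, 20.4 and 19.9 CPM in siNC to 22.6, 21.5 and 22.2 CPM in siFBXL6. The groups did not overlap, and its log2 fold change was 0.17 (SE 0.0517, edgeR adjusted p = 0.00783), but without siNC replicate 1 it was 0.13 and not called (adjusted p = 0.0526; over all alternatives from 0.00453 to 0.0526). A stretch of 24.7% of the exon bases of PSMA1 is shared with another gene on the same strand, so part of its count is uncertain. The other 4 alpha genes, PSMA2, PSMA5, PSMA6 and PSMA7, had log2 fold changes between -0.01 and 0.05 and were not called.

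In the beta ring, 3 subunits carry the proteolytic sites, and they did not move as a block. PSMB7, which cuts after basic residues, was at 149.8, 152.7 and 164.8 CPM in siNC and at 188, 189.5 and 188 CPM in siFBXL6. The siFBXL6 values were close together and above all siNC values, with a log2 fold change of 0.28 (SE 0.0330, edgeR adjusted p = 1.91e-08). PSMB5, the chymotrypsin-like subunit that proteasome inhibitors such as bortezomib mainly block, was at 39.4, 39.6 and 41.8 CPM against 45.2, 44.5 and 43.6 CPM. It rose in all 3 libraries, by 0.14 on the log2 scale (SE 0.0389, edgeR adjusted p = 0.00332). PSMB6, which cuts after acidic residues, was at 22.6, 21.9 and 21.7 CPM against 21.1, 21.0 and 20.1 CPM. Its groups were apart, yet its log2 fold change of -0.09 (SE 0.0498, 95% interval -0.19 to 0.01) was not called (edgeR adjusted p = 0.165).

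Of the beta subunits without a proteolytic site, PSMB3 was at 25.0, 25.2 and 25.7 CPM in siNC and at 28.4, 29.5 and 28.7 CPM in siFBXL6. It was higher in all 3 siFBXL6 libraries, with a log2 fold change of 0.19 (SE 0.0450, edgeR adjusted p = 0.000908). PSMB1 was at 67.7, 63.8 and 70.1 CPM against 60.0, 57.0 and 60.8 CPM. It was called lower, at -0.18 (SE 0.0372, edgeR adjusted p = 0.000167). PSMB2 and PSMB4 were not called. None of the 7 tested beta genes shares exon bases with another gene in the table.

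Among the ATPases, which form the motor of the cap, PSMC2 was at 95.8, 95.8 and 98.8 CPM in siNC and at 110.3, 111.7 and 114.2 CPM in siFBXL6. It was higher in each siFBXL6 library than in any siNC library, with a log2 fold change of 0.21 (SE 0.0310, edgeR adjusted p = 9.87e-07). PSMC6 was at 93.7, 83.7 and 93.6 CPM against 96.5, 95.6 and 101.6 CPM, a log2 fold change of 0.12 (SE 0.0369, edgeR adjusted p = 0.0112). Its siNC libraries were uneven, and the call did not hold without siNC replicate 2 (log2 fold change 0.06) or siFBXL6 replicate 3 (0.09), with adjusted p from 0.000710 to 0.188 over all alternatives. PSMC1 was at 376, 383 and 384 CPM against 403, 411 and 400.4 CPM. The groups were apart, with a log2 fold change of 0.09 (SE 0.0283, edgeR adjusted p = 0.0118). That call was lost with upper-quartile scaling (0.07) and without siFBXL6 replicate 2 (0.08), and over all alternatives its adjusted p ran from 0.00134 to 0.0783. Since 75.8% of the exon bases of PSMC1 overlap NRDE2 on the opposite strand, and a strand setting for the counting is not given in the sources used here, its value is uncertain. PSMC5 had the lowest fold change of the ATPases, -0.01, and overlapped between the groups, as did PSMC3 and PSMC4; PSMC4, at 0.06, was called in 1 of 15 alternatives, without siNC replicate 3 (0.10).

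The non-ATPase base of the cap held the largest change among the 43 genes. PSMD2, the scaffold known as RPN1 that docks ubiquitin receptors and shuttle proteins, was at 371, 368 and 372 CPM in siNC and at 512, 496 and 501 CPM in siFBXL6. The libraries of a group were within a few percent of each other and the groups far apart, with a log2 fold change of 0.44 (SE 0.0281, 95% interval 0.38 to 0.50, edgeR adjusted p = 7.42e-15). Of all genes tested, 9.71% had a higher log2 fold change. Its partner scaffold PSMD1 (RPN2) was at 123.1, 119.2 and 122.1 CPM against 120.8, 119.6 and 117.9 CPM. PSMD1 overlapped between the groups at a log2 fold change of -0.02 (95% interval -0.09 to 0.04). Per exon length, in TPM (counts per exon length scaled to a common total), the level of PSMD2 over that of PSMD1 was 2.87, 2.94 and 2.90 in siNC and 4.03, 3.94 and 4.04 in siFBXL6. PSMD4, a ubiquitin receptor, had a log2 fold change of 0.02 and was not called.

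In the lid, PSMD14 encodes RPN11, the metalloprotease that removes ubiquitin chains from substrates before they are degraded. It was at 131.6, 133.6 and 139.1 CPM in siNC and at 175.7, 179.6 and 179.9 CPM in siFBXL6. Every siFBXL6 library was above every siNC library, and the log2 fold change was 0.40 (SE 0.0310, 95% interval 0.34 to 0.47, edgeR adjusted p = 7.71e-13). PSMD12 (RPN5), a structural subunit of the lid, was at 149.9, 148.8 and 155 CPM against 182.4, 179.3 and 182.3 CPM. It rose by 19.9%, a log2 fold change of 0.26 (SE 0.0303, edgeR adjusted p = 1.00e-08), just under the 1.2-fold mark. PSMD3 (RPN3), another structural subunit, went down from 163.1, 168.5 and 165.4 CPM to 155.2, 148.3 and 151.8 CPM. Its groups were apart, with a log2 fold change of -0.13 (SE 0.0306, edgeR adjusted p = 0.00105). PSMD8 was called at 0.08 (edgeR adjusted p = 0.0324), a call lost in 5 of 15 alternatives. These were upper-quartile scaling (0.06), library size alone (0.06), and the fits without siNC replicate 2 (0.06), without siFBXL6 replicate 1 (0.07) and without siFBXL6 replicate 3 (0.08), with adjusted p from 0.0135 to 0.156 over all 15. PSMD6, PSMD7, PSMD11 and PSMD13 were not called, at log2 fold changes between -0.02 and 0.07. PSMD7 was called without siNC replicate 1 (0.09) and PSMD11 without siNC replicate 3 (0.08). The base assembly chaperones PSMD5, PSMD9 and PSMD10 lay between -0.08 and -0.02 and were not called, except PSMD9 with library size alone (-0.11).

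**Figure D3:**
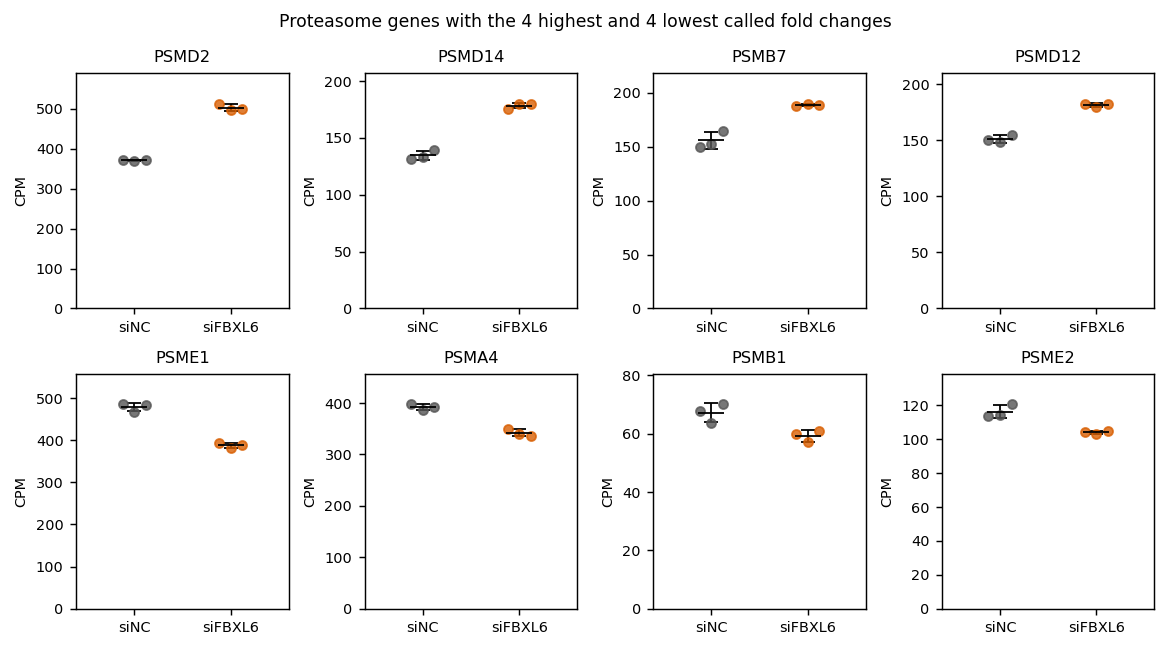
Dots are CPM in single libraries, dashes and bars are mean ± SD (n = 3), for the 4 highest and the 4 lowest fold changes among called proteasome genes; each vertical axis starts at 0. In each panel the siFBXL6 dots lie wholly above or wholly below the siNC dots, as for PSMD2, at 371 ± 2.13 CPM in siNC and 503 ± 8.28 CPM in siFBXL6.

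PSMD14 and PSMD12 lie on different chromosomes and rose together, so the 250 bases before their start sites are shown as RefSeq gives them for GRCh38.p14, 5′ to 3′ on the strand of the gene, at chr2:161308175-161308424 (plus strand) and chr17:67366578-67366827 (minus strand). Capitals mark TGACNNNGC, the core of the antioxidant response element to which NFE2L1 and its small MAF partners bind, and CCAAT, on either strand.
PSMD14: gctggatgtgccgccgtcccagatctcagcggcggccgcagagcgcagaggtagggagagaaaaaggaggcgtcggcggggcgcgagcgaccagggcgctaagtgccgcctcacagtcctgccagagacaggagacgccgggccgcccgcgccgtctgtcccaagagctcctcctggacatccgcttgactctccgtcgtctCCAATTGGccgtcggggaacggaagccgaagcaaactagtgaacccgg
PSMD12: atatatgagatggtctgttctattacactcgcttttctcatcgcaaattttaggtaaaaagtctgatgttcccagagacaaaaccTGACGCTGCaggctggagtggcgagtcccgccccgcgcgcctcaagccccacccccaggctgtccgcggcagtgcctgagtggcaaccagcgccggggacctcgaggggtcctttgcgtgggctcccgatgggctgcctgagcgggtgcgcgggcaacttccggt
The PSMD14 window holds CCAAT on both strands in overlapping letters and no TGACNNNGC, and the PSMD12 window holds TGACNNNGC once. Windows precede RefSeq start sites, which can differ from those of the deposited coordinates. The PSMD14 window lies inside the deposited span of its gene. Windows were found for 39 of the 45 genes (47 windows). TGACNNNGC was in 25.5% of these windows, against 10.9% of all 35116 windows of the same length, and CCAAT was in 38.3% against 32.0%. CCGGAAG, the core bound by ETS factors, was in 23.4% against 8.52%. The PSMD12 window holds CCGGAAG as well, not marked above, and the PSMD14 window lacks it. No window of PSMD2 holds any of these motifs. Of the 12 tested genes with TGACNNNGC in a window, 3 (25.0%) were called higher and 4 (33.3%) lower, beside 20.5% and 19.8% of all genes tested; of the 25 whose windows lacked it, 8 were higher and 2 lower. With CCAAT 5 of 17 were higher and 3 lower, and without it 6 of 20 and 3. With CCGGAAG 5 of 10 were higher and 1 lower, and without it 6 of 27 and 5. Differences between genes with and without a motif were not tested. A match describes these letters and does not show that a factor binds.

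The activator genes did not move together. PSME1 and PSME2 encode PA28 alpha and beta, interferon-inducible subunits of one ring that opens the core without ATP and is known for its part in antigen processing. PSME1 was at 485, 467 and 483 CPM in siNC and at 394, 381 and 388 CPM in siFBXL6. The groups were far apart, and it fell by 0.30 on the log2 scale (SE 0.0287, 95% interval -0.36 to -0.25, edgeR adjusted p = 1.07e-10), the lowest value among the 43 genes. PSME2 was at 113.7, 114.5 and 120.7 CPM against 104.5, 102.9 and 104.9 CPM. It was lower in all 3 siFBXL6 libraries, with a log2 fold change of -0.16 (SE 0.0316, edgeR adjusted p = 9.53e-05). PSME4, which encodes the large nuclear activator PA200, was at 80.6, 81.5 and 82.9 CPM against 90.9, 91.3 and 91.4 CPM. It rose, with a log2 fold change of 0.16 (SE 0.0307, edgeR adjusted p = 6.94e-05), while PSME3, the nuclear PA28 gamma, was at 0.05 and not called.

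PSME1 and PSME2 are neighbours on chromosome 14, with 4394 bases between them in the deposited coordinates. Their windows upstream of RefSeq start sites are shown because both genes fell. They lie at chr14:24135944-24136193 (plus strand) and chr14:24146611-24146860 (minus strand) of GRCh38.p14, and each holds 1 match to TGACNNNGC, in capitals. The PSME2 window lies inside the deposited span of its gene, chr14:24143362-24147570.
PSME1: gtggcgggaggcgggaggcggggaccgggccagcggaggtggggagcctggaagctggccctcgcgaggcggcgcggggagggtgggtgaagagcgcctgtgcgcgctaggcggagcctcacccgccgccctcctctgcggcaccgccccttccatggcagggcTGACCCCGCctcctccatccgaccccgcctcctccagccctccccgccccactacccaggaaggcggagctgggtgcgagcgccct
PSME2: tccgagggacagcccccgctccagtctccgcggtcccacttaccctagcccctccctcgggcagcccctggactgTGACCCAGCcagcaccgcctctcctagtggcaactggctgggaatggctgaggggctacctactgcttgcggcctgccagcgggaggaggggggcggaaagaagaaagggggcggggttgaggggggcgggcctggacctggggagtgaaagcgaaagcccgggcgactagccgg
Chromosome 14 holds 8 of the 45 genes, more than any other chromosome, and they did not move together: PSMB5, PSMC1 and PSMC6 were called higher, PSMA3, PSME1 and PSME2 lower, PSMA6 was not called and PSMB11 had no counts.

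PSMF1, the gene of the inhibitor PI31, was at 73.5, 73.9 and 73.4 CPM in siNC and at 66.4, 67.1 and 66.6 CPM in siFBXL6. The libraries of each group were nearly equal and the groups apart, with a log2 fold change of -0.14 (SE 0.0321, edgeR adjusted p = 0.000477). Chaperones of core assembly showed no such separation. PSMG2, PSMG3 and PSMG4 had log2 fold changes of 0.03, -0.08 and 0.04, and the groups overlapped for all 4 genes of the letter. They were among the least counted members, and their 95% intervals reached from -0.20 to 0.19. Over all 24 members not called, the 95% intervals ran from -0.20 to 0.19, so a change of 1.2-fold (0.26 on the log2 scale) lay outside each of them.

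Levels between genes can be set side by side only per length, here as TPM over the merged exons of the table, which include exons that a given transcript may lack. On that scale subunits of one ring, which stand in equal number in the particle, differed widely. In siNC the alpha genes reached from 17.2 ± 0.752 TPM for PSMA1 to 497 ± 7.64 TPM for PSMA7 (SD, n = 3), and the tested beta genes from 8.80 ± 0.298 TPM for PSMB2 to 252 ± 12.4 TPM for PSMB7. ATPase genes reached from 34.9 ± 2.27 TPM for PSMC6 to 541 ± 0.267 TPM for PSMC3. PSME1 had the highest level of all, at 776 ± 17.5 TPM in siNC and 628 ± 7.36 TPM in siFBXL6, and PSMG4 the lowest of the tested genes, at 2.64 ± 0.10 TPM in siNC. Across the 43 genes the log2 fold change had Pearson correlations of -0.23 with exon GC content, 0.16 with log2 exon length and -0.07 with log2 TPM in siNC; genes are not independent replicates, and all points share the same 6 libraries.

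**Figure D4:**
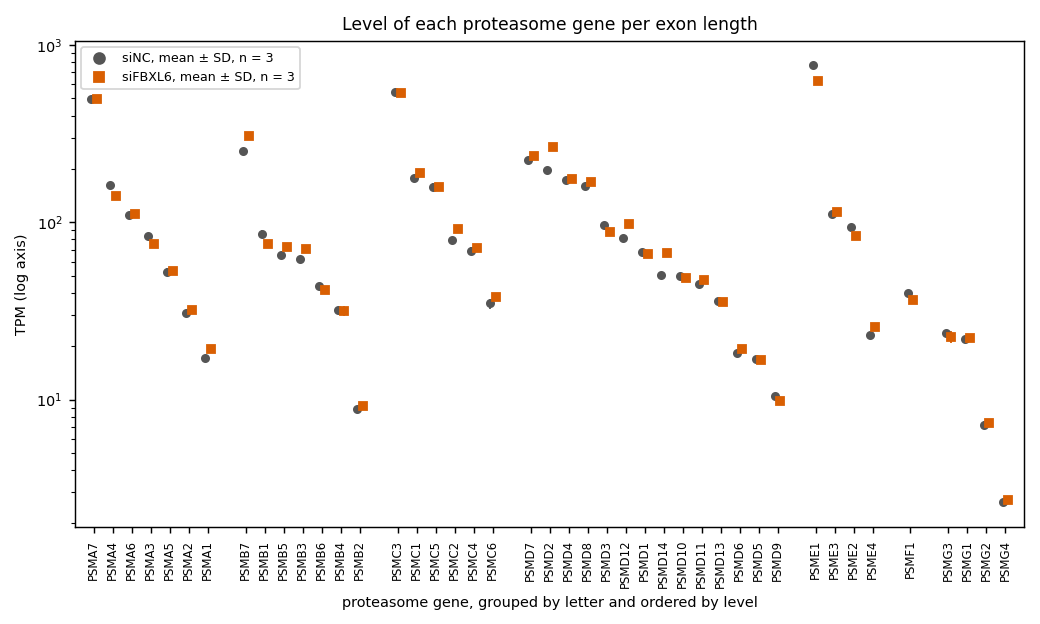
Levels are mean TPM ± SD (n = 3) on a log axis, for each gene tested, grouped by letter and ordered by level; circles are siNC and squares siFBXL6. Within a letter the levels span a wider range, such as 17.2 to 497 TPM for the alpha genes, than any gene's shift between the groups.

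Sums over the genes of a subcomplex went in different directions. The 7 alpha genes together were at 952, 941 and 967 TPM in siNC and at 934, 926 and 916 TPM in siFBXL6, and the 7 beta genes at 541, 539 and 570.2 TPM against 603, 612 and 604 TPM. The alpha sum was lower and the beta sum higher in all 3 siFBXL6 libraries, but few genes made these differences. PSMB7 alone went from 252 to 305 TPM on average, and the other 6 beta genes summed to 298, 293 and 304 TPM in siNC and 300, 304 and 300 TPM in siFBXL6, which overlapped. Without PSMA3 and PSMA4 the alpha sum overlapped as well, at 703, 701 and 719 against 713, 709 and 703 TPM. The 6 ATPases summed to 1068, 1046 and 1069 TPM against 1079, 1089 and 1088 TPM, and the 11 non-ATPase cap subunits to 1163, 1132 and 1158 TPM against 1278, 1267 and 1262 TPM. In the last sum PSMD2 alone went from 196 to 266 TPM on average, and the other 10 genes summed to 966, 937 and 961 TPM against 1007, 1003 and 998 TPM. All 45 genes together were at 4910.2, 4812 and 4951 TPM in siNC and 4917, 4911 and 4887 TPM in siFBXL6, so the total overlapped between the groups. In CPM long genes weigh more, and TMM factors are applied, which TPM lacks. The same total was then 5709, 5629 and 5776 against 5877, 5826 and 5842, and the groups were apart. The TMM factors were 0.998, 1.014 and 1.011 for siNC and 0.992, 0.992 and 0.993 for siFBXL6. Whether this separation holds without them was not tested.

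The inducible beta subunits PSMB8, PSMB9 and PSMB10, which replace PSMB5, PSMB6 and PSMB7 in the immunoproteasome, were set beside the constitutive ones. PSMB9 was at 7.34, 7.95 and 7.91 CPM in siNC and at 6.37, 6.46 and 6.25 CPM in siFBXL6. It was lower in all 3 libraries, with a log2 fold change of -0.28 (SE 0.0800, edgeR adjusted p = 0.00472). PSMB10 was at 4.99, 5.26 and 5.54 CPM against 4.75, 4.57 and 4.81 CPM and was not called (log2 fold change -0.16, 95% interval -0.35 to 0.03, adjusted p = 0.189 in edgeR). PSMB8 was at 39.4, 40.3 and 41.1 CPM against 41.0, 38.8 and 40.4 CPM, which overlapped (log2 fold change -0.01). Per length, PSMB10 over PSMB7 was 0.0321, 0.0332 and 0.0324 in siNC and 0.0243, 0.0233 and 0.0246 in siFBXL6. In this ratio PSMB7 was called higher (0.28) and PSMB10 was not called. PSMB8 over PSMB5 was 0.881, 0.896 and 0.865 against 0.797, 0.768 and 0.816. PSMB9 over PSMB6 was 0.153, 0.171 and 0.172 against 0.142, 0.145 and 0.146. Exon bases are shared with other genes for 34.8% of PSMB10 and 21.2% of PSMB8.

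Genes that work with the proteasome were read from lists drawn up by role. With the 3 inducible beta subunits included, 22 of 37 tested genes were called (59.5%, beside 40.2% of all genes tested). Of these, 15 (40.5%) were higher, beside 20.5%, and 7 (18.9%) lower, beside 19.8%; the call count ran from 18 to 23 over the 15 alternatives, and with at least 1.2-fold required besides it was 5 (13.5%, beside 21.9%). These differences from the share over all genes were not tested. Of the 7 subunits and assembly factors, 3 were called higher and 1 lower. AKIRIN2, which mediates the import of proteasomes into the nucleus, was at 21.5, 22.0 and 22.5 CPM in siNC and at 28.8, 29.2 and 27.2 CPM in siFBXL6. The groups were apart, at a log2 fold change of 0.37 (SE 0.0476, edgeR adjusted p = 9.29e-08). ECPAS (KIAA0368 in the table), an adaptor bound to the 26S particle, was at 0.21 (edgeR adjusted p = 1.95e-06), and the core maturation factor POMP at 0.17 (edgeR adjusted p = 4.16e-05). PAAF1, an ATPase chaperone, was lower at -0.16 (edgeR adjusted p = 0.0209), a call lost with DESeq2 (-0.16), without siNC replicate 3 (-0.11) and without siFBXL6 replicate 1 (-0.14). Both deubiquitinases that bind the cap, UCHL5 and USP14, were higher at 0.23 (adjusted p = 1.48e-07 and 4.13e-07 in edgeR), in a list of 12 enzymes and shuttles with 3 genes called higher and 3 lower of 11 tested. The ligase gene UBE3C, the shuttle gene UBQLN4 and ZFAND5 were lower, at -0.17, -0.16 and -0.13. Of 6 genes for ubiquitin and its activating enzymes, 2 were called higher and 1 lower. The activating enzyme UBA6 was at -0.10 (edgeR adjusted p = 0.00960), a call lost without siFBXL6 replicate 1 and without siFBXL6 replicate 3 (-0.09 in both). UBB was called higher at 0.08 and lost its call with upper-quartile scaling, library size alone and the length trend removed (0.06 in each), and without siNC replicate 2, siFBXL6 replicate 1 or siFBXL6 replicate 3 (0.07, 0.08 and 0.07).

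NFE2L1 is the transcription factor known to raise proteasome subunit genes when proteasome activity falls, and small MAF proteins are its partners on DNA. In the list for this pathway 7 of 10 tested genes (70.0%) were called higher, beside 20.5% of all genes tested, and 1, NFE2L2, lower (10.0%, beside 19.8%). The 7 were NFE2L1, MAFF, MAFG, MAFK, VCP, NPLOC4 and UFD1. NFE2L3 (-0.04) and NGLY1 (-0.08) were not called, nor was DDI2 (0.03), which was placed in the list of enzymes and shuttles. This list was drawn up with earlier results known, and its difference from all genes was not tested. MAFF was at 35.7, 36.7 and 36.6 CPM in siNC and at 58.7, 54.0 and 56.9 CPM in siFBXL6. MAFK was at 19.3, 22.1 and 20.8 CPM against 33.7, 33.0 and 32.0 CPM. Both were well apart between the groups, with log2 fold changes of 0.64 (SE 0.0389, edgeR adjusted p = 2.47e-15) and 0.67 (SE 0.0493, edgeR adjusted p = 3.25e-13). NFE2L1 itself was at 0.18 (edgeR adjusted p = 2.54e-06), while the related factor NFE2L2 was at -0.11 with overlapping groups (edgeR adjusted p = 0.0115). The call of NFE2L2 was lost without siNC replicate 2 (-0.08), without siFBXL6 replicate 1 (-0.10) and without siFBXL6 replicate 2 (-0.09). These are transcript counts, and neither NFE2L1 protein nor proteasome activity was measured here.

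**Figure D5:**
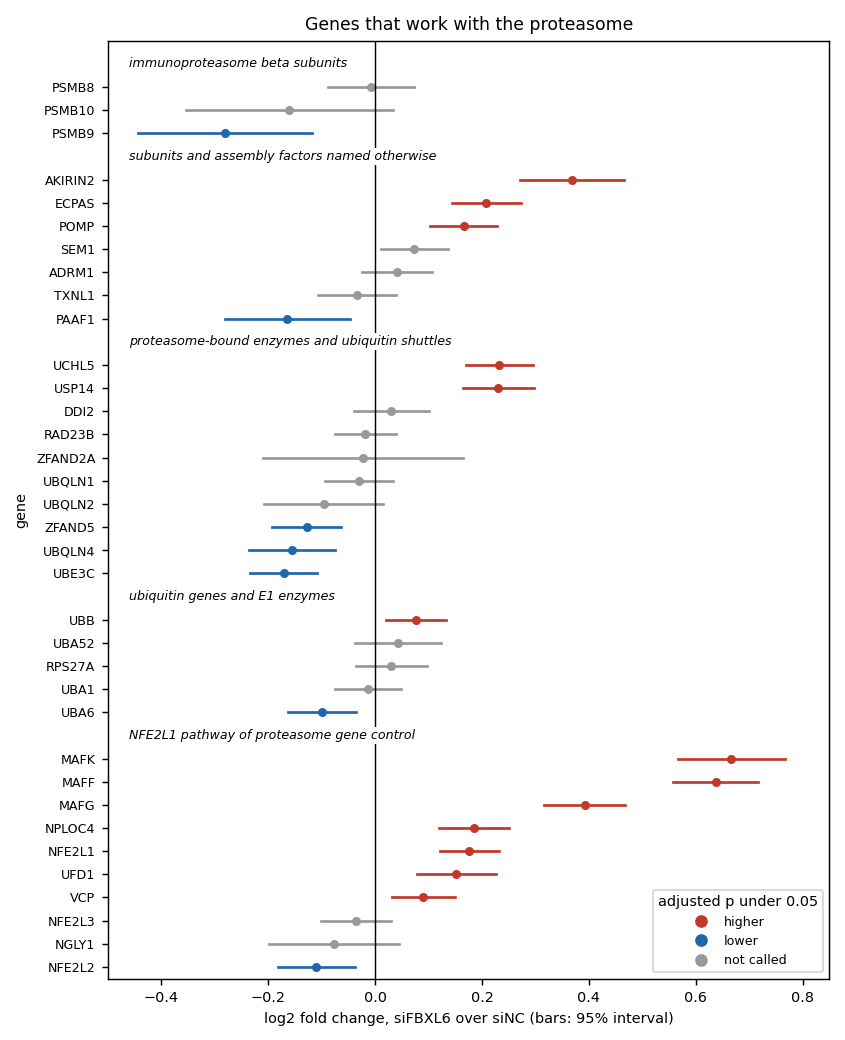
Points are log2 fold changes (siFBXL6 over siNC) with 95% intervals of 35 tested genes from the lists of proteasome-related genes, and colour gives the call. MAFK at 0.67 and MAFF at 0.64 lie farthest to the right and PSMB9 at -0.28 farthest to the left.

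Marker genes of cell state also moved. Of 8 markers of other cell types, 6 were tested and 2 were called, both higher, CD68 (log2 fold change 1.49, edgeR adjusted p = 4.65e-19) and PECAM1 (1.28, edgeR adjusted p = 4.40e-05). The list summed to 17.8, 16.1 and 16.0 CPM in siNC and to 29.7, 27.5 and 29.6 CPM in siFBXL6, with ALB the most abundant in siNC at 7.59 CPM. Most of this rise was CD68, which went from 6.70 to 18.8 CPM on average. PECAM1 rested on few counts, 25, 40 and 37 in siNC and 79, 65 and 108 in siFBXL6. ALB, VWF, DCN and PTPRC were not called. CD68 shares 85.8% of its exon bases with other genes, and the T cell gene CD3E had too few counts to be tested. The 6 epithelial genes summed to 3414, 3298 and 3399 CPM against 3089.7, 3069.7 and 3079 CPM, with 1 called higher (CDH1) and 4 lower (KRT7, KRT8, KRT19 and EPCAM), KRT7 losing its call with the exon GC trend removed (-0.06) and without siFBXL6 replicate 1 (-0.08) or 3 (-0.07). The 8 urothelial genes summed to 81.8, 80.4 and 85.1 CPM against 73.6, 76.2 and 74.0 CPM, mostly PPARG, and 2 of 4 tested, GATA3 (-0.53) and UPK3B (-1.19), were lower. UPK3B also had few counts, 39, 60 and 69 in siNC and 25, 34 and 16 in siFBXL6. Its pseudogene reached up to 250% of its count in a library, so its value is uncertain. The 4 mesenchymal genes, mostly FN1, summed to 2659, 2577 and 2514 CPM against 2267, 2308 and 2320.1 CPM, with VIM higher (0.70) and CDH2 (-0.59) and FN1 (-0.16) lower. In bulk RNA, fewer cells of a kind and less RNA per cell cannot be told apart. The part of these differences in those of the proteasome genes was not tested.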

How the data were processed

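Per the sources used here, the authors counted reads per gene with featureCounts (Subread 1.5.1) on GRCh38 and deposited counts without normalization. The paper's methods name Trimmomatic and HISAT2 for trimming and alignment, and the submitters' processing notes name fastp 0.23.0 and STAR. The annotation release, the strand setting and the treatment of reads on several genes are not given in the sources used here. Even values made up 73.1% of counts from 1 to 10, so mates may have been counted singly, and intervals cover counting error and spread between libraries only. The paper speaks of independent replicates in general terms, but the labels do not say that these samples came from separate cultures, so p-values measure the spread between these samples. Libraries within a group differed by more than sampling noise (chi-square per degree of freedom 2.85 to 6.20).

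Counts were filtered with filterByExpr, scaled by TMM and tested with edgeR 4.0.16 (R 4.3.3), with condition as the only term. TPM used the exon lengths of the table and no TMM factors. Exon overlaps came from its coordinates. The steps were tested on simulated data. Members and lists were chosen with earlier results of these data known. Named genes are FBXL6, the 3 smallest adjusted p and both extremes of each letter, PSMF1, the catalytic and inducible beta genes, and the 2 smallest adjusted p of each related list. Other genes with values were named after these were seen. Results for some listed genes are not reported here. Alternatives were DESeq2 1.42.0, other scalings and filters, a 1.2-fold minimum, a length trend, the replicate number as a block, and each library left out; an exon GC trend was added after seeing the data.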

Additional observations from a re-analysis of the deposited data

How the results depend on the processing

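Of 645 values for the 43 tested genes under 15 alternatives each, 631 kept the side of the threshold, 10 lost a call and 4 gained one. The sign turned in 19 values, of 9 genes not called, and in 0 values of a called gene. Of the 19 called members, 15 were called in every alternative. With a change of at least 1.2-fold required besides, 4661 genes and 4 members were called, 3 higher and 1 lower. Of the 23 tested members whose exons overlap no other gene, 12 were called, 8 higher and 4 lower. Of the 20 tested members with an overlap, 7 were called. Over all genes tested the share called was 40.2%, and these differences were not tested. The member median was 0.0086 with upper-quartile scaling and 0.0064 with library size alone, as these scalings shift all genes downward (median -0.03 in both). Of 105 values for the medians of the 7 letters, 17 moved by more than the spread between libraries. The labels give replicate numbers but do not say whether same-numbered samples were paired. Deviations of same-numbered libraries had correlations of -0.011, 0.000080 and 0.013. No shared shift was thus visible, which cannot show how the samples were processed. With the replicate block 8408 genes were called and the same numbers of members as without it, 12 higher and 7 lower. With each library left out, 7451 to 8298 genes and 17 to 21 members were called. The summed alpha level, the summed beta level without PSMB7, the summed non-ATPase cap level with and without PSMD2 and the total over all 45 genes moved by more than the spread when CPM replaced TPM. That replacement changes both the weight of gene length and the use of TMM factors. Depth limits FBXL6, PSMG2, PSMG4, PSMB9 and PSMB10, which had wide intervals, with SE from 0.0704 to 0.0949.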
